A study of Mus musculus with 8 samples.

Results

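Malat1, Neat1 and Meg3 are long noncoding RNAs known for staying in the nucleus, and they were followed here through the uterus of mice with and without a conditional deletion of Ezh2. They are 3 of the 5828 genes in 4 comparison tables that the authors deposited, found by gene symbol in each table that lists them. They were proposed as a set with the values of these tables in view, so their levels and differences are given as a description, with no test. Spatial spots carry no position within the cell, so that these RNAs were nuclear is background and was not measured.

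The study placed 10 µm cryosections of uterus on Visium slides, on which barcoded spots capture RNA for sequencing and each distinct molecule is counted once as a UMI. KO mice had the genotype EZ fl/fl; Prcre/+, in which Cre is driven from the progesterone receptor locus and the floxed Ezh2 gene is deleted where that receptor is made. WT mice were EZ fl/fl and so carried the floxed alleles too, without Cre. Both groups were of mixed C57BL/6 and 129SvEv strain and had 4 females, 1 KO and 1 WT from each of 4 litters. All 8 were ovariectomized at postnatal day 71 ± 4, which removes ovarian steroids, and uteri were taken on day 112 ± 11. The authors named spots epithelium or stroma and pooled the animals of a genotype, so each gene has 1 value in each of 4 groups and no replicate check. A spot can hold several cells of different types. Ezh2 itself was not analysed here, so the deletion was not checked.

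Malat1 is an abundant RNA of nuclear speckles, the bodies that store splicing factors, and mice without it develop and breed. Neat1 is the scaffold on which paraspeckles form, bodies that hold NONO, SFPQ and other RNA-binding proteins. It is known in reproductive tissue because mice lacking it can fail to form a corpus luteum and to sustain pregnancy. Meg3 is transcribed from the maternal chromosome of the imprinted Dlk1-Dio3 region and has been reported to bind Polycomb repressive complex 2, the methyltransferase complex of which EZH2 is the catalytic subunit.

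In GENCODE M21 on the GRCm38 build, Malat1 (ENSMUSG00000092341) lies on the minus strand at chr19:5795690-5802672 and Neat1 (ENSMUSG00000092274) on the same strand at chr19:5824708-5845478, with 22035 bases between them. Meg3 (ENSMUSG00000021268) lies on the plus strand at chr12:109541001-109571726 and hosts the microRNA genes Mir770 and Mir1906-1. All 3 are annotated as lincRNA, with 4, 4 and 11 transcripts. Malat1 and Meg3 each overlap 1 gene model on the opposite strand, Gm37376 and Gm26906. Gene models on the same strand overlap too: Gm27694 in Malat1, Gm27505, Gm27533 and Gm28006 in Neat1, and Gm27300 and Gm27596 in Meg3. Whether counting used strand is not given in the sources used here, and without strand the opposite-strand partners cannot be told apart.

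Visium slides capture RNA through its poly(A) stretches, and these 3 RNAs end in different ways, so their 3′ ends are shown before the values. Mature Malat1 is cut by RNase P and has no added tail; it ends in an encoded A-rich stretch. The short form of Neat1 carries a poly(A) tail, and the long form, which builds the paraspeckle, is cut like Malat1 and has none. The sequences are from the GENCODE M21 transcripts, 5′ to 3′. Capitals mark the 12-base run of A in the first, AATAAA, the usual polyadenylation signal, in the next 3, and in the last a stretch of 16 bases that also occurs in the Malat1 window.
Malat1 A-rich stretch, chr19:5795968-5796079, minus strand: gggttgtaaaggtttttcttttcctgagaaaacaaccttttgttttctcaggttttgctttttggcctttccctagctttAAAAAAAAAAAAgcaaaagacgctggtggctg
Malat1 annotated end, chr19:5795690-5795769, minus strand: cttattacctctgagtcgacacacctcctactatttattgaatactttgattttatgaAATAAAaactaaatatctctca
Neat1 short form end, chr19:5842307-5842386, minus strand: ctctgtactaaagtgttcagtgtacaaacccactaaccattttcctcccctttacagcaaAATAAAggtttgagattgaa
Meg3 end, chr12:109571642-109571721, plus strand: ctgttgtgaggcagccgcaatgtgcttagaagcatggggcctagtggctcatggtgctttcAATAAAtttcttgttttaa
Neat1 long form end, chr19:5824708-5824787, minus strand: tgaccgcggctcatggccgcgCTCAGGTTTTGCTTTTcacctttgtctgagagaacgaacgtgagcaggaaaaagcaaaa

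The run of 12 A is the only run of 8 or more A in the 6983-base Malat1 transcript, and it begins at base 6674. The annotated transcript goes on past it to an AATAAA that is followed by 16 bases. AATAAA was searched on the transcript strand in the last 50 bases, where 23.5% of 30175 annotated noncoding transcripts hold it, and 10.7% of them hold a run of at least 8 A anywhere. In the Neat1 short form 14 bases follow AATAAA, and in the Meg3 transcript shown 13 bases follow it. Of the 11 Meg3 transcripts, 4 have AATAAA in the last 50 bases, and the longest of them, with 14548 bases, holds 7 runs of at least 8 A, the longest of 16 bases. The 20771-base Neat1 long form has no AATAAA in its last 50 bases and no run of 8 A. The longest stretch its end shares with the Malat1 window, 16 bases, ends 43 bases before its own end. Its last bases, aaaaagcaaaa, are A-rich and also occur in the Malat1 window, across the end of the run of A. These matches describe letters only, and the deposited sums do not say which form of Neat1 or which end of Malat1 was counted.

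Malat1 was higher in stroma spots than in epithelium spots in both genotypes. The pooled sums were 1256 UMIs in WT epithelium, 973 in KO epithelium, 3118 in WT stroma and 3327 in KO stroma. The pools differ in depth (relative to WT epithelium at 1, KO epithelium was 1.08, WT stroma 0.393 and KO stroma 0.791), so levels are given below as UMIs scaled to the depth of the WT epithelium pool. Fewer cells of a type and less RNA per cell cannot be told apart in such pools.

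On the scaled level, Malat1 stood at 1256 in WT epithelium (95% counting interval 1187 to 1327), 898 in KO epithelium (842 to 956), 7926 in WT stroma (7650 to 8209) and 4203 in KO stroma (4062 to 4349). The order was WT stroma, KO stroma, WT epithelium, KO epithelium, and the neighbours in that order differed by more than the counting error. Of every 10000 UMIs on the 1755 genes with a value in all 4 groups, Malat1 took 75.2 in WT stroma, 39.2 in KO stroma, 11.8 in WT epithelium and 8.25 in KO epithelium. All intervals here cover counting error only and say nothing of the spread between animals.

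Neat1 followed the same order with smaller steps. Its sums were 312 UMIs in WT epithelium, 313 in KO epithelium, 215 in WT stroma and 299 in KO stroma. On the scaled level these were 312 (278 to 349), 289 (258 to 323), 547 (476 to 625) and 378 (336 to 423). WT stroma stood apart from the other groups. KO stroma was 1.21-fold above WT epithelium (1.03 to 1.42), and WT epithelium was 1.08-fold above KO epithelium with an interval that includes equality (0.921 to 1.27).

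Meg3 was highest in KO stroma among the 3 pools in which it has a value. It had 46 UMIs in WT epithelium, 73 in KO epithelium and 169 in KO stroma. The scaled levels were 46 (33.7 to 61.4), 67.4 (52.8 to 84.7) and 214 (183 to 248). KO stroma stood above both epithelial pools, and the interval of KO over WT epithelium only just reached equality (fold 1.46, 0.999 to 2.17).

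Meg3 in WT stroma was not analysed here, since neither table with that group lists the gene. No table lists a gene whose averages both stay at or below 1, and of 590 gene and table pairs known from other tables but not listed, 0 had a known average above 1. On the scale of the stroma table, the 169 UMIs of Meg3 in KO stroma correspond to an average of 0.992, just under 1. An average of 1 in WT stroma would be 69 UMIs in the WT table, a scaled level of 175. If that listing rule holds for Meg3, KO stroma was at or above 1.22 times WT stroma, with a counting interval at that bound that includes equality (0.915 to 1.64). This interval treats the limit of 69 UMIs as if it had been counted. Meg3 is known in KO stroma only because it was listed through that pool, and the bound exists only because WT stroma was not listed. The direction of the bound is thus partly set by the listing, and nothing is read from it. The ratio itself was not analysed here.

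**Figure D1:**
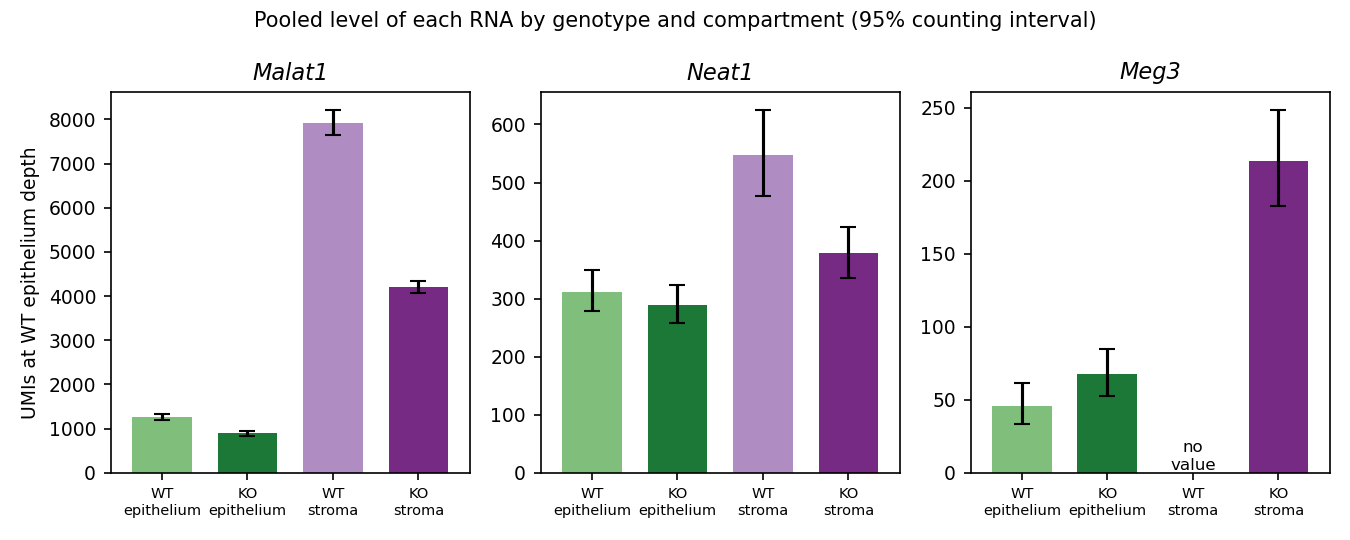
Pooled level of Malat1, Neat1 and Meg3 (UMIs at the depth of the WT epithelium pool, linear axes from 0, a separate axis for each RNA) in the 4 groups; bars are the single pooled value and whiskers its 95% counting interval. Malat1 reaches 7926 in WT stroma against 898 in KO epithelium, Neat1 547 against 289, and Meg3 has no value in WT stroma.

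The first comparison asks how the compartments of the control uterus differ. In WT mice Malat1 was 6.31-fold higher in stroma than in epithelium (5.91 to 6.74), a log2 ratio of epithelium over stroma of -2.66. Neat1 was 1.75-fold higher in stroma (1.47 to 2.09), a log2 ratio of -0.81. The adjusted p that the authors' deposited table gives was 1.41e-25 for Malat1 and 0.0147 for Neat1, so both listed members passed 0.05, where 28.8% of the table's 1769 genes did (13.1% higher in epithelium and 15.7% higher in stroma). The median log2 ratio of the table was 0.02, with quartiles of -0.48 and 0.45. Malat1 had the 11th lowest log2 ratio of all 1769, and 1 gene in the authors' deposited table had a smaller adjusted p. Neat1 was 274th lowest, below the lower quartile but among the smaller called differences.

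In KO mice the same contrast was smaller for both. Malat1 was 4.68-fold higher in KO stroma than in KO epithelium (4.36 to 5.03, log2 -2.23), the 5th lowest log2 ratio of 2744 genes. Meg3 was 3.17-fold higher in KO stroma (2.40 to 4.23, log2 -1.66), the 15th lowest. Its averages were 1.89 in KO stroma and 0.598 in KO epithelium, so it is listed here only through stroma. The direction, rank and call of Meg3 are thus partly set by the listing. Neat1 was 1.31-fold higher in KO stroma (1.11 to 1.54, log2 -0.39). The authors' deposited table gives adjusted p-values of 8.65e-07 for Malat1, 7.96e-05 for Meg3 and 0.651 for Neat1. Thus 2 of 3 members were called, where 9.88% of the table's genes were (5.43% higher in epithelium and 4.45% higher in stroma). Since the members were chosen from such values, their counts are set beside these shares and nothing is read from them.

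The members differed among themselves in the size of the compartment ratio. The log2 ratio of Malat1 was below that of Neat1 by 1.85 in WT (95% counting interval of the difference -2.12 to -1.58) and by 1.84 in KO (-2.09 to -1.59). In KO it was below that of Meg3 by 0.56 (-0.97 to -0.15), and Neat1 lay 1.28 above Meg3 (0.82 to 1.73). In these values Malat1 had the steepest gradient of the 3 and Neat1 the shallowest in KO, with Meg3 between them. The place of Meg3 is partly set by the listing, and nothing is read from this order.

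**Figure D2:**
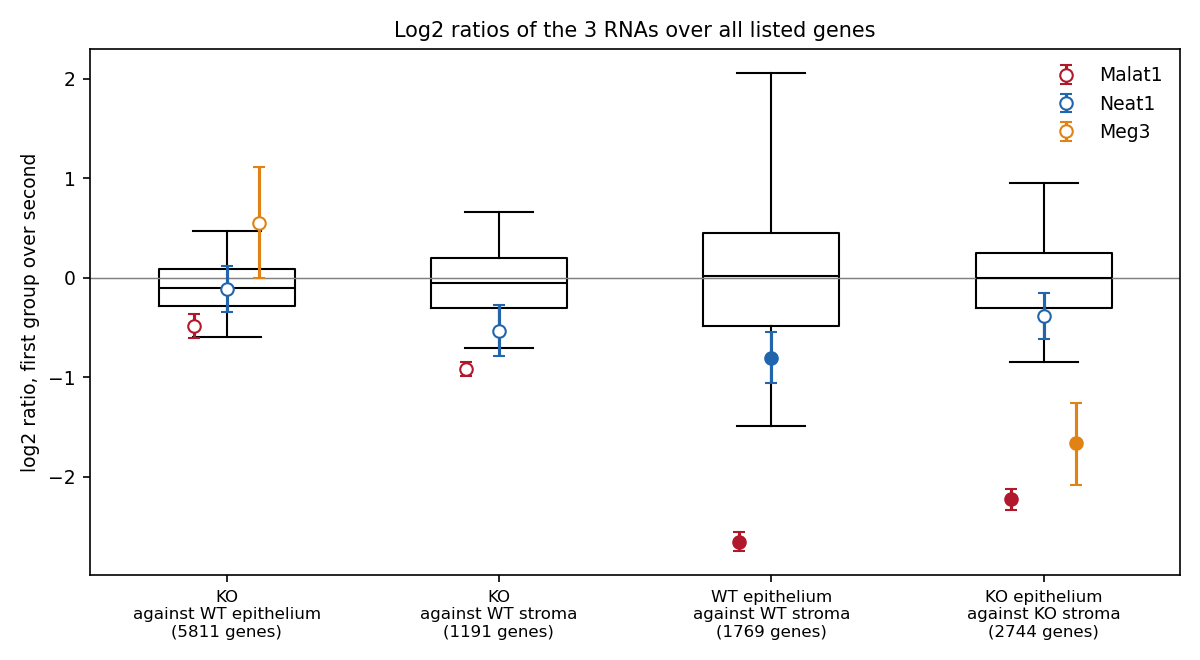
Log2 ratio of the first group over the second in the 4 comparisons, for the 3 RNAs (points with 95% counting intervals, filled where the authors' deposited adjusted p was under 0.05) and for all listed genes (box, quartiles and median; whiskers, 5th and 95th percentiles). Malat1 lies below the lower whisker in both compartment comparisons, at -2.66 and -2.23, and in the stroma comparison of KO with WT at -0.91.

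Between genotypes, the question is what loss of Ezh2 changed within a compartment. In epithelium, Malat1 was 1.40-fold higher in WT (1.29 to 1.52, log2 KO over WT -0.48) and Neat1 1.08-fold higher in WT (0.921 to 1.27, log2 -0.11). Meg3 was 1.46-fold higher in KO (log2 0.55). With averages of 1.18 in KO and 0.808 in WT, it is listed only through KO, which partly sets this direction. None of the 3 was called: the authors' deposited table gives each an adjusted p of 1, and in it 0.12% of 5811 genes were called. The median gene of that table stood at -0.10 (quartiles -0.28 and 0.08), and against it Neat1 stood at -0.01.

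In stroma, Malat1 was 1.89-fold higher in WT (1.80 to 1.98, log2 KO over WT -0.91), the 23rd lowest log2 ratio of 1191 genes. Neat1 was 1.45-fold higher in WT (1.21 to 1.73, log2 -0.53). Neither was called: the authors' deposited table gives adjusted p-values of 0.198 and 0.878, and in it 1.51% of genes were called and the median log2 ratio was -0.05 (quartiles -0.30 and 0.19). The counting interval of Malat1 is narrow because it rests on 3118 and 3327 UMIs, and it does not hold the spread between the 4 animals. These tables share groups with the compartment tables and are not independent of them.

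The compartment ratio was closer to equality in KO for both RNAs that have all 4 values. The log2 ratio of epithelium over stroma was 0.43 higher in KO than in WT for Malat1 (0.29 to 0.57) and 0.42 higher for Neat1 (0.08 to 0.76). The median over the 1755 genes with all 4 values was -0.02 (quartiles -0.29 and 0.23). The 262 of these genes that the authors' deposited table called higher in WT stroma had a median of 0.51 (quartiles 0.33 and 0.73), and 255 of them were above 0. Both members are among those 262. The 262 were selected on a low WT ratio, which is then subtracted, so the selection itself favours a positive shift, for the members too, and nothing is read from the likeness.

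**Figure D3:**
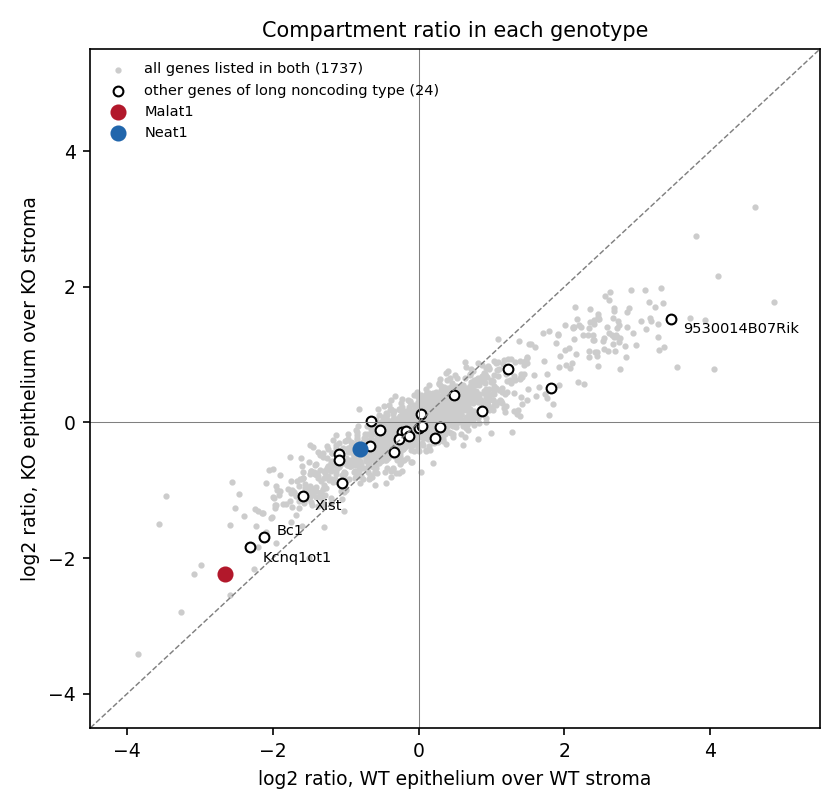
Log2 ratio of epithelium over stroma in WT (horizontal) and KO (vertical) for the 1737 genes listed in both compartment tables, with Malat1, Neat1 and 24 other genes that GENCODE types as long noncoding marked (Cct6a, known as protein-coding, is among the 24); the dashed line marks equal ratios. Malat1 (-2.66 and -2.23) and Neat1 (-0.81 and -0.39) lie above the line, nearer to 0 in KO than in WT.

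Cell type markers also differed between the pools. Of the listed simple epithelium markers, such as the keratin gene Krt8, 11 of 11 in WT and 14 of 14 in KO were called higher in epithelium. Over all genes of the authors' deposited tables, these shares were 13.1% in WT and 5.43% in KO. The summed scaled level of these markers was 9993 in WT epithelium against 1169 in WT stroma, and 9169 in KO epithelium against 2774 in KO stroma. Of the endometrial stroma markers, such as the proteoglycan gene Dcn, 11 of 17 in WT and 6 of 18 in KO were called higher in stroma. Over all genes it was 15.7% in WT and 4.45% in KO. The marker sums in epithelium against stroma were 9349 against 26424 in WT and 12090 against 22426 in KO. These sums ran with the labels of the pools. A marker low in either pool is listed only through the other, so the directions called are partly set by the listing. No listed marker was at 0 in any pool.

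In KO against WT stroma, 5 of the 20 epithelium markers were listed, with summed levels of 2005 in KO and 846 in WT and none called. Of 16 listed endometrial stroma markers, 8 were higher and 8 lower in KO, and 2 were called lower (12.5%, sums 22163 and 26223). Of 9 listed smooth muscle markers, 5 were called lower in KO in the authors' deposited table (sums 2171 and 4581). Over all 1191 genes, 9 were called lower in KO, and 1.51% were called in either direction. The 4 listed blood endothelium markers, of 12, summed to 883 in KO and 1169 in WT, and 3 listed red cell markers, of 5, to 361 and 1065, none called. Since a low marker is listed only through the pool in which its average passes 1, the direction of such short lists is partly set by the listing, and nothing is read from it. Smooth muscle markers, such as Cald1 and Myh11, were also higher in stroma than epithelium in WT, 9 of 10 called (all genes, 15.7%). So were the 3 listed red cell markers, all called, with sums of 1065 in WT stroma and 86 in WT epithelium, and the 4 listed blood endothelium markers, all called. Of 3 listed macrophage markers, 1 was called higher in epithelium in WT (all genes, 13.1%). In KO, 1 of 6 was called higher in epithelium (all genes, 5.43%) and 2 of 6 higher in stroma (all genes, 4.45%). In KO against WT epithelium, 9 of 11 smooth muscle markers were lower in KO (sums 1176 and 1743) and 14 of 18 endometrial stroma markers higher (sums 12161 and 9488), none of either called. The part of these cell types in the Malat1 and Neat1 differences was not tested. The sum of the 10 mitochondrially encoded mRNAs was 0.59 higher on the log2 scale in KO than in WT epithelium, with 10 of 10 higher in KO. In stroma it was 0.42 higher in KO, with 8 of 10 higher in KO and the other two lower, as Malat1 was. None was called between genotypes, and their part in the result was not tested either.

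Other long noncoding RNAs served for comparison. Of a list of 60 named ones, 14 were listed in the WT compartment table and 4 of these were called higher in stroma (28.6%, beside 15.7% of all genes), with a median log2 ratio of -0.40. Kcnq1ot1, which silences an imprinted domain in cis, was 4.95-fold higher in WT stroma (3.74 to 6.61). Bc1, an RNA polymerase III transcript best known from neurons, was 4.33-fold higher (3.74 to 5.04); it is short for a long noncoding RNA, and without it the count is 3 of 13. Xist, which silences an X chromosome in female cells, was 3.01-fold higher (2.49 to 3.65), and Hand2os1, transcribed beside the stromal factor gene Hand2, 2.14-fold higher (1.67 to 2.72). The log2 ratio of Malat1 lay below those of all 4. Kcnq1ot1 (77 UMIs) and Hand2os1 (150 UMIs) have averages under 1 in WT epithelium and are listed only through stroma. The direction of this list is thus partly set by the listing, and nothing is read from its share or median.

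In KO, 3 of the 17 listed were called higher in stroma (17.6%, beside 4.45% of all genes, and 2 of 16 without Bc1), again Kcnq1ot1 at 3.57-fold (2.77 to 4.63), Bc1 at 3.23-fold (2.77 to 3.78) and Xist at 2.11-fold (1.77 to 2.52). The median log2 ratio of the 17 was -0.23. Kcnq1ot1 (86 UMIs in KO epithelium) is listed only through stroma here too, so nothing is read from this share. In both compartment tables none of the list was called higher in epithelium, beside 13.1% of all genes in WT and 5.43% in KO. Nothing is read from that absence, since so few genes of the list were listed. The members not called in WT were Hoxa11os, Snhg18, Oip5os1, Epb41l4aos, 2410006H16Rik, Snhg20, Snhg1, Gas5, Snhg8 and Zfas1, with log2 ratios from -0.66 to 0.29. Several of these, Gas5 and the Snhg genes among them, host small nucleolar RNAs in their introns. In KO the same genes and Mir100hg, Hand2os1, Snhg12 and Tug1 ran from -0.80 to 0.02.

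Between genotypes none of the list was called, beside 0.12% of all genes in epithelium and 1.51% in stroma. In epithelium 25 were listed with a median log2 ratio of KO over WT of -0.06, which became 0.04 relative to the median gene, and they ran from -0.87 for Snhg9 to 0.69 for 2410006H16Rik. Besides the names above these were Rmst, Snhg5, Firre, Snhg17, Snhg3, Peg13 and Snhg6. In stroma 13 were listed, from -0.81 for Bc1 to 0.61 for Zfas1, with a median of -0.14. Malat1, at -0.91 in stroma, lay below all 13, and at -0.48 in epithelium it lay within the range of the 25.

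The proteins of the nuclear bodies these RNAs belong to were taken from lists of 33 speckle and 32 paraspeckle genes. Of the 28 speckle genes listed in the WT compartment table, 5 were called higher in stroma (17.9%, beside 15.7% of all genes) and none higher in epithelium, with a median log2 ratio of -0.33. Luc7l2, a U1 snRNP partner, was 2.29-fold higher in WT stroma (1.78 to 2.93). Son, a protein of the speckle core, was 2.17-fold higher (1.83 to 2.58), Pnisr 1.85-fold higher (1.46 to 2.34) and Clk1, a kinase of SR splicing proteins, 1.59-fold higher (1.37 to 1.85). None of these reached the 6.31-fold of Malat1, and the share called was near that of the whole table. In the other tables no speckle gene was called: the median was -0.18 for 32 genes in KO epithelium against KO stroma, -0.14 for 33 in KO against WT epithelium and -0.25 for 24 in KO against WT stroma. Over all genes, 9.88%, 0.12% and 1.51% were called in these comparisons.

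Of 15 paraspeckle protein genes listed in the WT compartment table, 1 was called higher in stroma (6.67%, beside 15.7% of all genes). It was the cold-induced RNA-binding protein gene Rbm3, 1.59-fold higher in stroma (1.37 to 1.86). The authors' deposited table gives its adjusted p as 0.0423. The list's median log2 ratio there was -0.10. Of 22 listed in KO epithelium against KO stroma, 25 in KO against WT epithelium and 14 in KO against WT stroma, none was called, with medians of -0.02, -0.13 and -0.21. Over all genes, 9.88%, 0.12% and 1.51% were called in these comparisons. Neat1 itself differed by 1.75-fold in the WT compartment table.

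For Meg3, 0 of 7 genes of the Dlk1-Dio3 list (Begain, Dlk1, Rtl1, Rian, Mirg, Dio3 and Dio3os) were listed in any table, and no other listed gene lies within 250 kb of it. Of the 11 genes of Polycomb repressive complex 2 and its partners, 8 were listed in KO against WT epithelium, with a median log2 ratio of -0.29. None was called, beside 0.12% of all genes. In KO epithelium against KO stroma, where Meg3 was called, 3 were listed and none was called, beside 9.88% of all genes. For so few listed genes, nothing is read from the absence of calls.

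Within 250 kb of Malat1 or Neat1, 16 other listed genes were described, and none was called in any table that lists it. Over all genes, 28.8% were called in WT epithelium against WT stroma and 9.88% in KO epithelium against KO stroma. Between genotypes it was 0.12% in epithelium and 1.51% in stroma. With so few neighbours listed, nothing is read from the absence of calls. In KO epithelium against KO stroma, 6 of the 16 were listed and ran from -0.39 for Ltbp3, a latent TGF-beta binding protein gene, to 0.04 for Fam89b. In WT epithelium against WT stroma, 3 were listed, from -0.22 for Ltbp3 to 0.75 for the protease gene Capn1. Malat1 stood at -2.66 in that table and at -2.23 in the KO table, outside both ranges. In KO against WT epithelium all 16 were listed, from -0.45 to 0.19, and Malat1 at -0.48 lay just below that range.

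**Figure D4:**
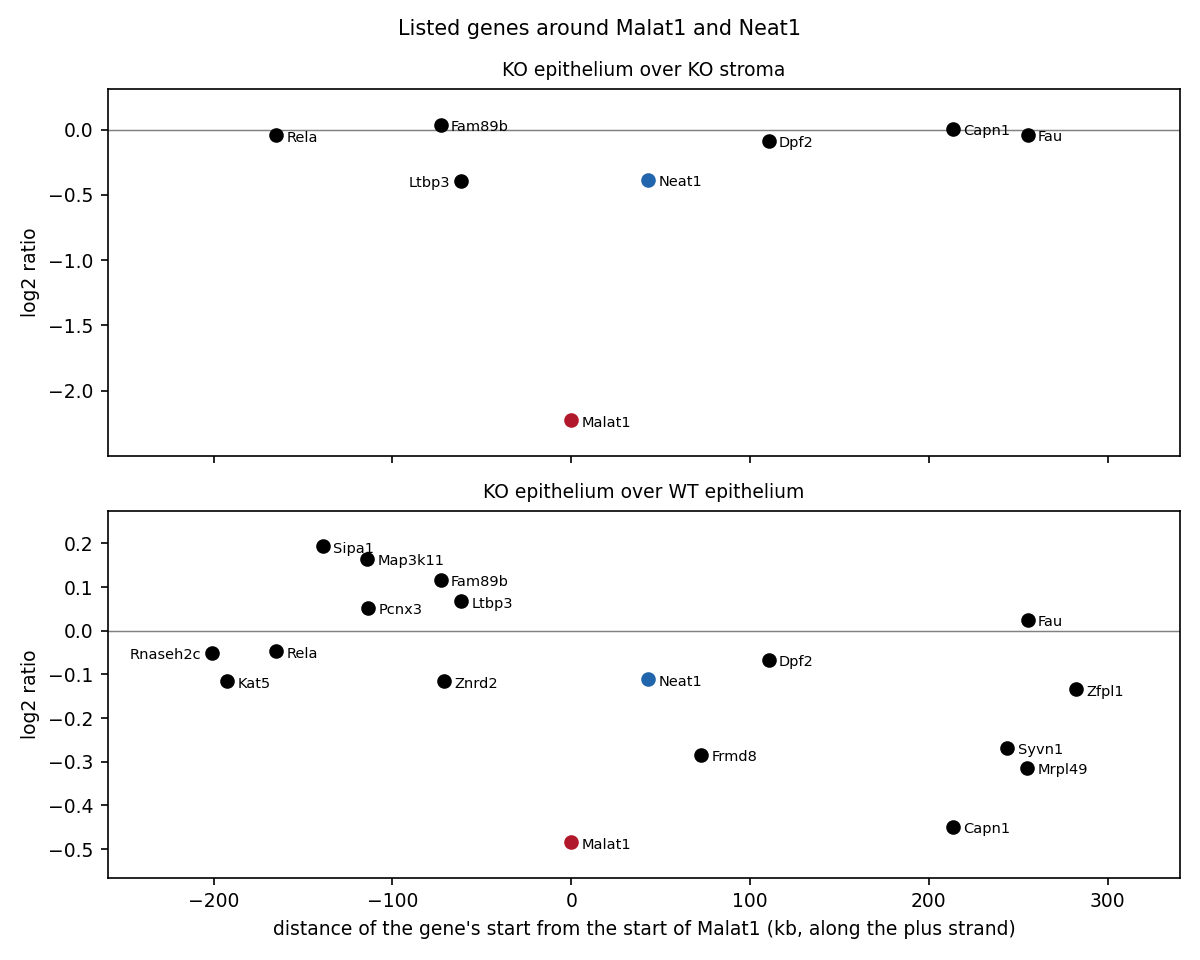
Log2 ratio of the described genes within 250 kb of Malat1 or Neat1 against the distance of the gene's start from that of Malat1 (kb, along the plus strand), for KO epithelium over KO stroma (upper) and KO over WT epithelium (lower). In the upper panel the neighbours lie between -0.39 and 0.04 and Malat1 at -2.23.

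The genes whose levels followed each RNA most closely over the pools were ranked by the root mean square difference of log2 averages, each centred on the gene's own mean. Over the 4 groups and 773 genes with an average of at least 1 in each, the nearest to Malat1 was Cxcl12, which encodes a stromal chemokine, at 0.125 log2 units. It was followed by Bc1 at 0.274, the transcription factor genes Klf9 at 0.419 and Tcf4 at 0.457, and Zbtb20 at 0.493. Scaled levels of Cxcl12 were 219 in WT epithelium, 179 in KO epithelium, 1734 in WT stroma and 769 in KO stroma. With no minimum level, over 1735 genes, Cxcl12 stayed first, and Gpx3, Smoc2 and Aqp1 came before Bc1.

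The nearest to Neat1 were Zfp503 at 0.051 log2 units, Mdk at 0.056, Clk1 at 0.062, Atp2b1 at 0.063 and Flna at 0.064, so many genes lay close to its shallow pattern. With no minimum level the 5 nearest were Nktr, Pbrm1, Tnfsf12, Klhl9 and Cpsf6, and 0 of the 5 were shared. Meg3 could be ranked only over the 3 pools in which it has a value, a choice made after the data were seen. Its nearest of 2713 genes were the globin gene Hbb-bs at 0.083, Adamts1 at 0.129, Bcl2 at 0.132, Klf2 at 0.168 and Penk at 0.172. In WT stroma, left out of this ranking, all 5 stood above their KO stroma level, such as Hbb-bs at 519 against 205. If the listing rule holds, Meg3 was at or below 175 there, beside 214 in KO stroma, a direction partly set by the listing. With 3 or 4 pooled points, such likeness is a description of these pools.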

How the data were processed

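Visium sections of 8 uteri were summarised by the authors in 4 tables. Per the file headers, the authors deposited, beside a log2 fold change and an adjusted p-value (FDR), the average of each group's spots on a normalized UMI scale. The genome build named is GRCm38, per the submitters' own notes on processing. How spots were named, and by which aligner and test the values were made, is not given in the sources used here. With animals pooled, the p-values may rest on variation between spots. Pooled UMI sums were recovered by solving each table's size factor sums from its averages and log2 fold changes by least squares; 100% of genes then gave whole numbers within 0.01, as on simulated data. Ratios use these sums without a pseudocount, with 95% Clopper-Pearson intervals (exact Poisson for levels, normal on the log scale for differences of ratios). Genes were called at a deposited adjusted p under 0.05. Named genes are the members, their 5 nearest genes, all listed long noncoding RNAs of the list and up to 4 called members of each other list. Members and lists were chosen with earlier results of these data known. A neighbour of Malat1 is not reported here. Of the gene IDs, 5826 matched GENCODE M21. Python 3.11.15, SciPy 1.17.1 and pandas 2.3.3 were used.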

Additional observations from a re-analysis of the deposited data

How the results depend on the processing

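All 30 alternative values of the 10 member log2 ratios (centred on the median gene, scaled without the members and mitochondrially encoded genes, or as the authors' deposited log2 fold change) lay within the counting interval, and 0 changed sign. Of the 2 members called in WT epithelium against WT stroma, 1 was left at an adjusted p under 0.01 and 1 with a minimum absolute log2 fold of 1; Neat1 lost its call in both. Member counts in the other tables were the same under every alternative run. Centred on the median gene, a choice added after the data were seen, the KO minus WT compartment ratio was 0.45 for Malat1 and 0.44 for Neat1. No paired analysis was possible because the authors' tables pool the animals of each genotype, and for the same reason no animal could be left out. Depth limits Meg3 most, with 46 UMIs in WT epithelium.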

Other observations

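GENCODE M21 types 54 listed genes other than the 3 members as long noncoding, by classes that include processed transcripts; Cct6a, Ifi30, Ptpmt1 and Tmem134 among them are known as protein-coding. Of the 54, 24 were listed in WT epithelium against WT stroma. The authors' deposited table called 4 of the 24 for epithelium (16.7%, beside 13.1% of all genes) and 6 for stroma (25%, beside 15.7%), shares that say little for so short a list. These gene models are named after their values were seen, and whether each is noncoding was not checked beyond its annotation. 9530014B07Rik had scaled levels of 196 in WT epithelium and 17.8 in WT stroma, an 11.0-fold difference with a wide counting interval (5.25 to 27.8), and 153 in KO epithelium against 53.1 in KO stroma, a 2.89-fold difference (2.05 to 4.15). Gm43305 was 3.53-fold higher in WT epithelium (2.50 to 5.13), Gm49980 2.33-fold (1.82 to 3.02) and 1810058I24Rik 1.83-fold (1.41 to 2.41). On the stroma side, Gm48898 was 2.14-fold higher in WT stroma (1.75 to 2.62) and Gm42418 2.07-fold (1.93 to 2.22), beside Kcnq1ot1, Bc1, Xist and Hand2os1. In KO, 1 of 32 listed was called for epithelium (3.12%, beside 5.43% of all genes) and 4 for stroma (12.5%, beside 4.45%). Genes low in either pool are listed only through the other pool, so the directions called are partly set by the listing.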
